A study of Homo sapiens with 12 samples.

Results

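Long noncoding RNAs (lncRNAs) are transcripts that are spliced and often polyadenylated like messenger RNA but encode no known protein. Here 8 of the 26485 genes listed in the count files were followed across 6 groups of libraries. They were MALAT1, NEAT1, H19, GAS5, SNHG1, UCA1, CASC9 and SFTA1P, chosen by symbol as abundant or much-studied lncRNAs. CASC9 and SFTA1P were picked because reads were seen in only one of the untreated lines, so every comparison with untreated libraries is given for these genes as a description without a test. The untreated lines are compared without a test for all 8 genes.

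The libraries came from A549, a lung adenocarcinoma line, and BEAS-2B (B2B), an immortalized line of bronchial epithelial cells, both labelled WT. Each line was untreated (NT), treated with 10 µM SR11302 for 72 h, or treated with 50 µM SP600125 for 72 h, and groups are named by line and treatment, as in A549_NT or B2B_SP600125. SR11302 is used to inhibit AP-1, the Jun and Fos family of transcription factors, and SP600125 inhibits the Jun N-terminal kinases (JNK) that phosphorylate Jun. There were 2 libraries per group and 12 in all. Each tissue state is therefore represented by a single cell line, and the sources do not say whether the libraries of a group came from separate cultures, so the p-values measure only the spread between these libraries. The inhibitors were dissolved in DMSO, and whether NT cells received it is not settled by the sources. The comparisons asked how each inhibitor changed these RNAs in the cancer line and in the bronchial line.

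MALAT1 and NEAT1 are neighbouring genes whose RNAs stay in the nucleus. MALAT1 RNA gathers in nuclear speckles, which store splicing factors, and NEAT1 RNA is the scaffold on which paraspeckles assemble. GAS5 and SNHG1 are host genes of small nucleolar RNAs (snoRNAs), which guide chemical modification of ribosomal RNA and are cut out of the host's introns. The spliced host RNAs are usually short-lived because translation exposes them to nonsense-mediated decay. H19 is an imprinted fetal RNA and the precursor of miR-675, UCA1 was described in urothelial cancer, CASC9 in esophageal cancer, and SFTA1P derives from a surfactant-associated pseudogene. The libraries were made with a kit that selects polyadenylated RNA. MALAT1 and the long NEAT1 isoform end in a triple helix in place of a poly(A) tail, so such a kit captures these RNAs incompletely.

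Each library held 13969766 to 24917854 reads assigned to a gene. Reads that fell in no annotated gene made up 23.8 to 25.9% of all tallied reads in the 4 untreated libraries and 14.6 to 20.1% in the 8 treated ones, without overlap. This difference and the inhibitors cannot be told apart in any comparison with NT. Summed CPM of 10 epithelial markers fixed for A549 ranged from 6860 to 16340 in A549 and from 714.5 to 1868 in B2B. For 10 basal and mesenchymal markers the ranges were 1269 to 2312 in A549 and 6626 to 18610 in B2B, and 12 markers of other cell types summed to 5.15 to 17.1 CPM in every library. FN1 alone had a mean of 13700 CPM in B2B_NT. In each comparison of the lines, 1 of 8 tested epithelial markers was lower in A549. Of 8 tested basal and mesenchymal markers, 1 was higher there. Of these 8, 7 fell and 0 rose with SP600125 in B2B (22.6% of all genes lower). With SR11302 in A549, 4 rose and 0 fell (14.8% of all genes higher). Reads of genes particular to the other line were most frequent in the second untreated libraries, at 0.407% of the level in B2B for A549_NT and 0.622% of the level in A549 for B2B_NT.

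MALAT1 was the most abundant lncRNA in these cells (plot of MALAT1 and NEAT1 by library). Among 2312 genes annotated as lncRNA it ranked 1 in all 12 libraries, by CPM (counts scaled to library size with TMM factors) and by CPM per kb of the longest annotated transcript. It took 0.248 to 0.679% of all gene reads. NEAT1 ranked 2 by CPM in every library and 3 to 7 per kb. The length used for NEAT1 was 22743 bases, that of its long isoform, which the kit captures incompletely. Its level and rank per kb therefore depend on that choice of length. GAS5 ranked 8 to 15 and SNHG1 ranked 6 to 15 per kb. In A549_NT the mean level per kb was 683 ± 34.0 CPM per kb for MALAT1, 57.6 ± 2.89 for NEAT1, 30.97 ± 0.466 for SNHG1, 26.8 ± 0.647 for GAS5 and 7.89 ± 0.323 for CASC9 (SD, n = 2). In B2B_NT the order was MALAT1 (617 ± 11.7), NEAT1 (71.0 ± 0.931), GAS5 (24.9 ± 1.22), SNHG1 (23.4 ± 0.316) and SFTA1P (7.95 ± 0.329 CPM per kb). SNHG1 thus stood above GAS5 in A549_NT and below it in B2B_NT, and the libraries of these genes did not overlap in either group. Over all annotated exons SNHG1 stood above GAS5 in A549_NT (29.4 and 17.1 CPM per kb) and also in B2B_NT (22.1 and 15.9 CPM per kb), so the order in B2B_NT turns with the length used. H19 had 0 reads and UCA1 had 21 reads over all libraries.

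The files name genes by symbol only, and coordinates here are those of GENCODE v44 on hg38. MALAT1 (chr11:65497640-65508073, plus strand) and NEAT1 (chr11:65422774-65445540, plus strand) are 52100 bases apart. The exons of MALAT1 overlap antisense exons of TALAM1 over 8121 bases. Whether the counting used strand is not given in the sources used here, so reads of MALAT1 and of this antisense RNA cannot be told apart. Exact 50-base windows were unique in the genome for 99.0% of MALAT1 exon sequence and 98.8% of NEAT1 exon sequence, and the counts do not separate the NEAT1 isoforms.

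A MALAT1 promoter window of RefSeq (GRCh38.p14, chr11:65497488-65497787, plus strand, 250 bases before to 50 after the start) is shown because MALAT1 RNA fell under inhibitors aimed at AP-1. Capitals mark TGACNNNGC, the core of the antioxidant response element, which here overlaps TGACG, the core of the cyclic AMP response element. Another TGACNNNGC match, on the opposite strand and further from the start, is left in lower case. A further MALAT1 window, at chr11:65498795-65499094 and not shown, holds neither motif.
MALAT1: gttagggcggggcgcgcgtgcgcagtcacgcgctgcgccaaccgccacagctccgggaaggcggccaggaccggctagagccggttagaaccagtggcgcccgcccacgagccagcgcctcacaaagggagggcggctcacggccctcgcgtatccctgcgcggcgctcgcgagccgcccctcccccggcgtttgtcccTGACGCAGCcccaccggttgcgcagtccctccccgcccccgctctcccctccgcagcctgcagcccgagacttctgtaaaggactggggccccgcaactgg
The AP-1 motif TGANTCA, searched on both strands, is held by 7.71% of 35116 promoters of this length. TGACG occurs in 24.6% and TGACNNNGC in 13.3% of them. Windows were matched for 4 of the 8 genes (MALAT1, H19, GAS5 and SNHG1) and not for NEAT1, UCA1, CASC9 and SFTA1P, and TGANTCA occurs in none of the matched windows.

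MALAT1 fell under each inhibitor in each line. In A549 it stood at 6876 and 7377 CPM untreated, at 3115 and 5097 CPM with SR11302, and at 4149 and 4012 CPM with SP600125. Every treated A549 library was below both untreated libraries, and the SR11302 libraries lay apart from each other by more than any other group. In B2B the values were 6521 and 6348 CPM untreated, 3176 and 3121 CPM with SR11302, and 2530 and 2278 CPM with SP600125. The 3 B2B groups did not overlap.

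**Figure D1:**
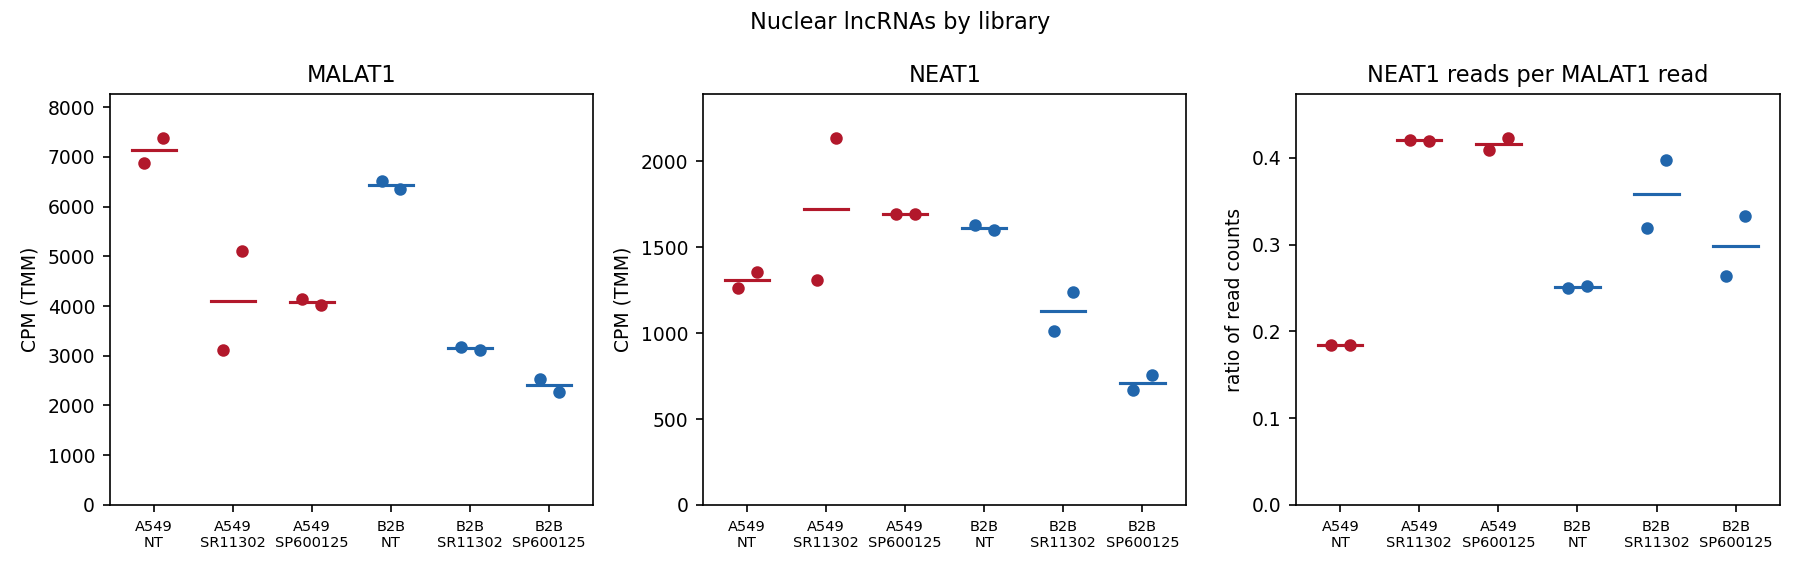
CPM of MALAT1 and NEAT1 and the number of NEAT1 reads per MALAT1 read (y axes) in the 2 libraries of each group (x axis); points are libraries, lines are means, red is A549 and blue is B2B. MALAT1 was below its untreated level in all 8 treated libraries, whereas NEAT1 was below both untreated libraries of its line in the 4 treated B2B libraries and in none of the treated A549 libraries.

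The log2 fold change of MALAT1 against NT was −0.80 ± 0.17 (SE) for SR11302 in A549 (edgeR adjusted p = 0.00325) and −0.80 ± 0.17 for SP600125 in A549 (edgeR adjusted p = 0.00136). In B2B it was −1.03 ± 0.18 for SR11302 (edgeR adjusted p = 0.000795) and −1.42 ± 0.18 for SP600125 (edgeR adjusted p = 1.91e-05). The comparisons of a line share its untreated libraries. Without the first A549_SR11302 library the fall in A549 was −0.48, under the fold minimum of 0.5. The share of reads in no gene was 16.7% and 20.1% in the A549_SR11302 libraries, and MALAT1 was higher in the second. The part of that share in the result was not tested. Less MALAT1 per cell and fewer cells that hold it cannot be told apart in bulk RNA.

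The fall of MALAT1 did not pass a test of difference between the lines. Subtracting the B2B effect from the A549 effect gave 0.24 ± 0.25 for SR11302 (edgeR adjusted p = 0.549) and 0.62 ± 0.25 for SP600125 (edgeR adjusted p = 0.0802). The SP600125 difference passed with DESeq2, without the count filter and when only the 4 groups compared were fitted (0.63, 0.62 and 0.65). Between the treated lines, A549 held 0.76 ± 0.17 more MALAT1 on the log2 scale under SP600125 (edgeR adjusted p = 0.00149) and 0.38 ± 0.17 more under SR11302 (edgeR adjusted p = 0.0663). The latter passed without the first A549_SR11302 library (0.69) and was 0.0016 without the second. The untreated lines lay 0.15 ± 0.17 apart, with A549 higher.

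NEAT1 fell in B2B under SP600125, and its response differed between the lines. In A549 it stood at 1264 and 1357 CPM untreated, 1311 and 2136 CPM with SR11302, and 1695 and 1696 CPM with SP600125. Both SP600125 libraries were above the untreated ones, and the SR11302 libraries overlapped them. In B2B it stood at 1629 and 1599 CPM untreated, 1014 and 1242 CPM with SR11302, and 666 and 758 CPM with SP600125, without overlap of any groups.

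In A549 the NEAT1 difference from NT was 0.39 ± 0.18 with SR11302 (edgeR adjusted p = 0.0993) and 0.37 ± 0.18 with SP600125 (edgeR adjusted p = 0.0884), and neither passed. In B2B NEAT1 fell by 1.18 ± 0.18 on the log2 scale with SP600125 (edgeR adjusted p = 0.000103), 2.27-fold. With SR11302 in B2B it was −0.52 ± 0.18 (edgeR adjusted p = 0.0422). This last call was lost without any 1 of the 4 B2B_NT and B2B_SR11302 libraries (−0.67 to −0.38) and under scaling by library size only (−0.44). The difference between the lines was 1.55 ± 0.25 for SP600125 (edgeR adjusted p = 0.000672) and held in all 16 alternatives (1.49 to 1.65). For SR11302 it was 0.91 ± 0.25 (edgeR adjusted p = 0.0252) and ranged from 0.56 to 1.22, with the call kept in 10 of 16 alternatives. It was lost without the first A549_NT library (0.86), without either B2B_NT library (0.90 and 0.93) and without the first B2B_SR11302 library (0.78).

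The number of NEAT1 reads per MALAT1 read within a library does not depend on scaling, and was computed after the levels were seen. It was 0.184 and 0.184 in A549_NT, 0.421 and 0.419 in A549_SR11302, and 0.408 and 0.423 in A549_SP600125. In B2B it was 0.250 and 0.252 untreated, 0.319 and 0.398 with SR11302, and 0.263 and 0.333 with SP600125. All treated libraries exceeded the untreated libraries of their line. The A549_SR11302 libraries, which differed in the level of each RNA, had nearly the same ratio.

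The inhibitors were also compared directly. In B2B, NEAT1 was lower with SP600125 than with SR11302 by −0.66 ± 0.18 (edgeR adjusted p = 0.00853), a call lost without the second B2B_SR11302 library (−0.51) or the first B2B_SP600125 library (−0.59). In A549 the difference was −0.02 ± 0.18 for NEAT1 and −0.01 ± 0.17 for MALAT1 (edgeR adjusted p = 0.931 and 0.979), and for MALAT1 in B2B it was −0.39 ± 0.17 (edgeR adjusted p = 0.0852). Under SP600125 A549 held more NEAT1 than B2B (1.25 ± 0.18, edgeR adjusted p = 2.89e-05), and under SR11302 by 0.61 ± 0.18 (edgeR adjusted p = 0.00777). The latter was 0.23 without the second A549_SR11302 library and 0.47 without the first B2B_SR11302 library, and neither passed. The untreated lines stood the other way round (−0.30 ± 0.18).

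Of 20 genes for paraspeckle proteins, all tested, 1 was higher and 7 were lower with SR11302 in A549 (27.8% of 16373 genes called in either direction). The counts were 1 and 3 with SR11302 in B2B (22.5%), 1 and 8 with SP600125 in A549 (48.8%), and 2 and 5 with SP600125 in B2B (43.8%). The list medians were −0.41, −0.20, −0.37 and −0.35, and the medians of all tested genes were 0.02, 0.01, 0.02 and 0.01. RBMX, which encodes an RNA-binding protein, fell in each of these comparisons (−1.03 ± 0.10, −0.71 ± 0.10, −1.16 ± 0.11 and −1.22 ± 0.11). RBM14, which encodes a protein needed for paraspeckle assembly, fell by 2.39 ± 0.16 with SP600125 in A549 and by 0.79 ± 0.15 in B2B. SMARCA4, encoding a chromatin remodeling ATPase, fell with SP600125 in A549 (−1.52 ± 0.15) and in B2B (−0.65 ± 0.13). ZC3H6 rose (0.63 ± 0.18, 0.82 ± 0.17, 1.73 ± 0.18 and 1.44 ± 0.17).

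Of 21 genes for nuclear speckle and splicing factors, 0 were higher and 3 were lower with SR11302 in each line (27.8% of all genes called in A549 and 22.5% in B2B). The counts were 4 and 5 with SP600125 in A549 (48.8%) and 4 and 3 in B2B (43.8%), so in each comparison the share called was below that of all genes. With SP600125, CLK4, a kinase of splicing factors, rose in A549 (1.32 ± 0.16) and in B2B (0.93 ± 0.15), as did PNISR (1.15 ± 0.10 and 0.84 ± 0.10) and SRSF5, a splicing factor (0.72 ± 0.09 and 1.01 ± 0.09). SRRM1 fell with SR11302 (−0.58 ± 0.10 in A549 and −0.56 ± 0.10 in B2B). U2AF1 was among the lower genes, but its counts were 16 to 26 reads in untreated libraries and 0 to 2 in treated ones, and a near-identical annotated copy makes its counts uncertain.

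Of 18 tested genes within 200000 bases of NEAT1, MALAT1 among them, 12 fell and 0 rose with SP600125 in A549 (median −1.04, against 25% of all genes lower and 23.9% higher), and 5 fell and 3 rose in B2B (22.6% lower and 21.2% higher), near the share of all genes. FRMD8, 9249 bases to the left of NEAT1, did not pass in A549 (−0.08 ± 0.12 with SP600125) and stood at −0.42 ± 0.12 in B2B, under the fold minimum. SLC25A45, 39073 bases to the left, fell in A549 (−1.18 ± 0.18) and stood at −0.23 ± 0.27 in B2B. LTBP3, encoding a TGF-beta binding protein and 30486 bases to the right of MALAT1, fell with SP600125 in A549 (−1.60 ± 0.13) and stood at −0.15 ± 0.13 in B2B, a difference of −1.45 ± 0.18 between the lines (edgeR adjusted p = 0.000109).

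**Figure D2:**
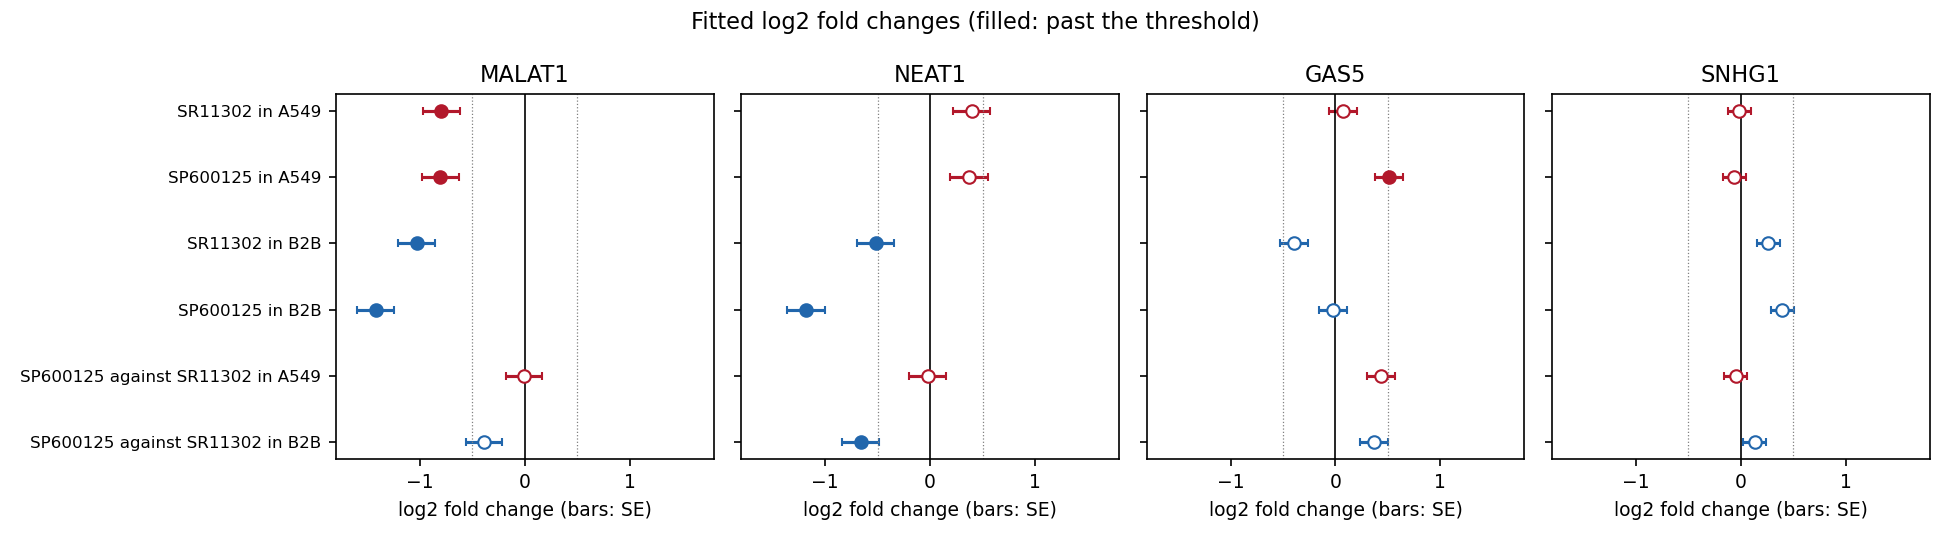
Fitted log2 fold changes (x axis, bars are SE) of the 4 lncRNAs tested in all comparisons, for each inhibitor against NT and for SP600125 against SR11302 (y axis), in A549 (red) and B2B (blue). Filled points passed an adjusted p under 0.05 and the fold minimum of 0.5 (dotted lines); MALAT1 lay to the left of zero in all 4 comparisons with NT and NEAT1 on opposite sides in the 2 lines.

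GAS5 (chr1:173858559-173868882, minus strand) and SNHG1 (chr11:62851978-62855953, minus strand) had smaller differences from NT than MALAT1 in each of the 4 comparisons. Exons of GAS5 share 132 bases with the antisense gene GAS5-AS1, so without known strand their reads cannot be told apart. GAS5 stood at 83.0 and 85.9 CPM in A549_NT, 90.3 and 87.3 CPM in A549_SR11302 and 122 and 119 CPM in A549_SP600125. The SP600125 libraries were highest. In B2B it stood at 75.7 and 81.1 CPM untreated, 53.0 and 66.1 CPM with SR11302, and 66.8 and 87.1 CPM with SP600125, where only the SR11302 libraries stood apart from the untreated ones.

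GAS5 rose with SP600125 in A549 by 0.51 ± 0.13 (edgeR adjusted p = 0.00470), just past the fold minimum, and was 0.49 without the first A549_NT library, 0.50 without the first A549_SP600125 library and 0.49 with only the groups compared. In B2B it was −0.03 ± 0.13 with SP600125 (edgeR adjusted p = 0.887) and −0.40 ± 0.13 with SR11302 (edgeR adjusted p = 0.0380, under the fold minimum). With SR11302 in A549 it was 0.07 ± 0.13 (edgeR adjusted p = 0.701). The difference between the lines was 0.54 ± 0.19 for SP600125 (edgeR adjusted p = 0.0491). It lost its call without any 1 of 7 of the 8 libraries concerned, each except the second B2B_SP600125 library (0.39 to 0.59). For SR11302 it was 0.47 ± 0.19 (edgeR adjusted p = 0.104). GAS5 was higher in A549 than in B2B under SR11302 (0.58 ± 0.13, edgeR adjusted p = 0.00165) and under SP600125 (0.64 ± 0.13, edgeR adjusted p = 0.000697), where the untreated lines lay 0.11 ± 0.13 apart. Leaving out the first B2B library of the inhibitor took these to 0.42 and 0.47, and scaling by library size only to 0.49 and 0.46, all under the fold minimum. Against SR11302, GAS5 with SP600125 was 0.44 ± 0.13 higher in A549 and 0.37 ± 0.13 in B2B (edgeR adjusted p = 0.0152 and 0.0376), under the fold minimum in each line. The B2B value passed without the second B2B_SR11302 library or the first B2B_SP600125 library (0.53 each), and was 0.22 without the first B2B_SR11302 library and 0.17 without the second B2B_SP600125 library.

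SNHG1 did not pass the fold minimum in any comparison. It stood at 116 and 118 CPM in A549_NT, 126 and 106 CPM in A549_SR11302 and 114 and 110 CPM in A549_SP600125. In B2B it stood at 88.9 and 87.2 CPM untreated, 98.4 and 113 CPM with SR11302, and 118 and 113 CPM with SP600125, and B2B_NT held the lowest values of all groups. Against NT the largest difference was 0.39 ± 0.11 with SP600125 in B2B (edgeR adjusted p = 0.00747), which passed without the fold minimum and with scaling by library size only (0.53). The other differences from NT were 0.26 ± 0.11 with SR11302 in B2B, −0.02 ± 0.11 with SR11302 in A549 and −0.06 ± 0.11 with SP600125 in A549 (edgeR adjusted p = 0.0858, 0.937 and 0.643). The difference between the lines was −0.46 ± 0.15 for SP600125 (edgeR adjusted p = 0.0419), which passed without the fold minimum and with scaling by library size only (−0.52), and −0.28 ± 0.15 for SR11302 (edgeR adjusted p = 0.238). SLC3A2, an amino acid transporter subunit whose gene starts 51 bases from SNHG1, rose with SR11302 in B2B (0.78 ± 0.17) and stood at 0.15 ± 0.17 in A549.

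Reads of the GAS5 snoRNAs fell relative to those of their host. The number of reads of the 10 intron snoRNAs per 100 GAS5 reads, computed after the levels were seen, was 34.8 and 36.8 in A549_NT, 17.4 and 21.3 in A549_SR11302, and 9.54 and 9.0 in A549_SP600125. In B2B it was 32.2 and 26.7 untreated, 24.7 and 19.1 with SR11302, and 10.7 and 9.15 with SP600125. No treated library reached the untreated values of its line. The 8 snoRNAs of SNHG1 had 25.4 and 24.5 reads per 100 SNHG1 reads in A549_NT, 19.3 and 21.6 in A549_SR11302 and 20.9 and 19.6 in A549_SP600125, with every treated library below the untreated ones. In B2B the values were 23.1 and 22.5 untreated, 25.9 and 24.01 with SR11302 and 18.6 and 20.4 with SP600125, above the untreated libraries with SR11302 and below them with SP600125. Such short RNAs without a poly(A) tail are poorly captured here, and these reads may come from snoRNAs or from unspliced host RNA, which were not separated. In GENCODE v44, exons of SNHG1 share bases with its snoRNAs, such as 75 with SNORD28 and 75 with SNORD26. The annotation used for counting is not given. Reads may therefore be split between host and snoRNA differently for GAS5 and SNHG1, and their ratios are not compared with each other. The share of reads in no annotated gene was lower in the same treated libraries, and its part in the fall was not tested.

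**Figure D3:**
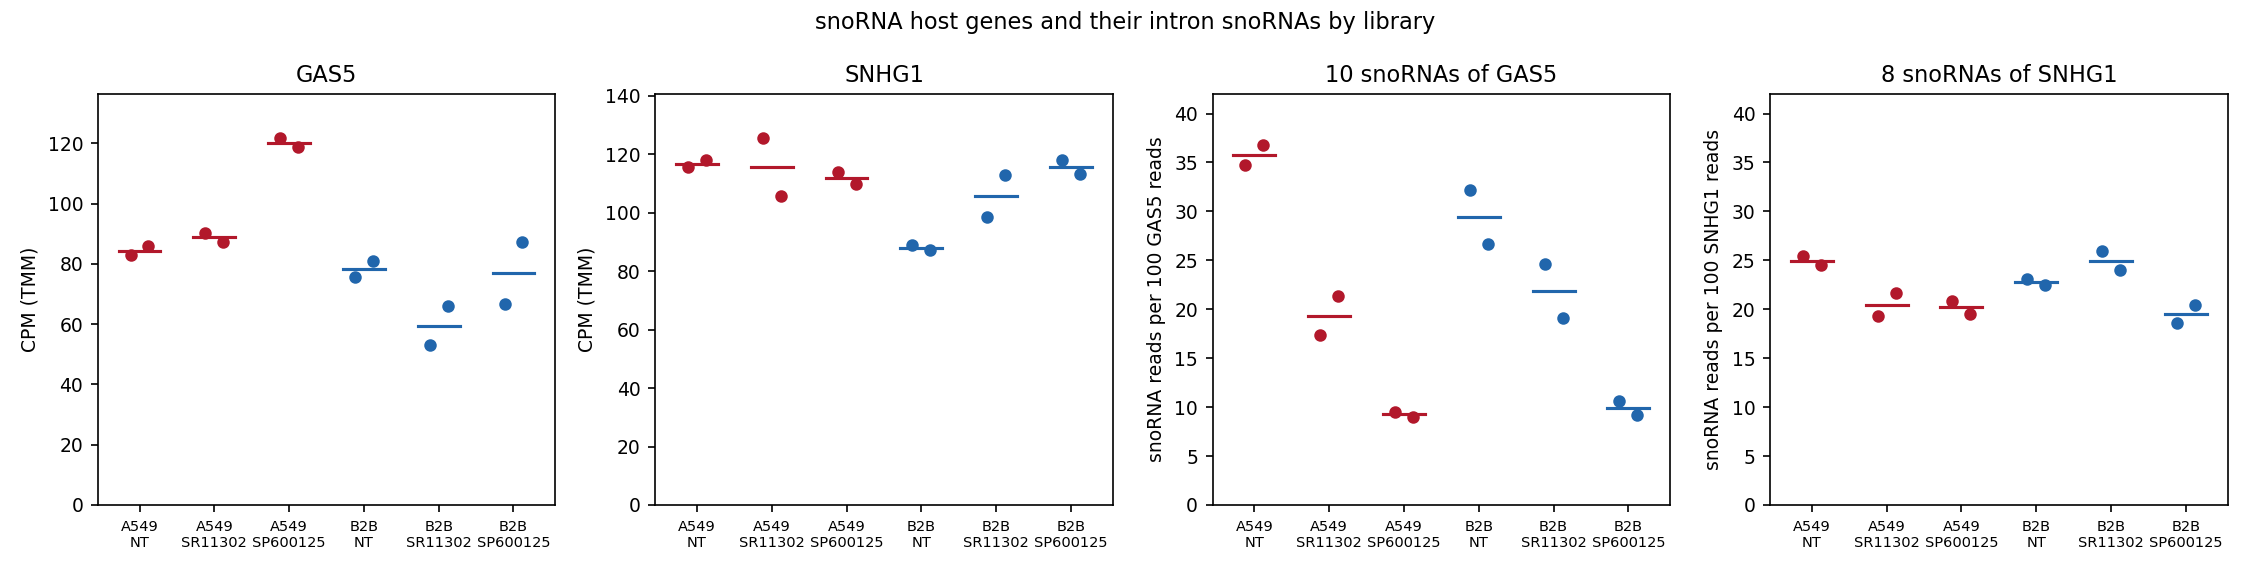
CPM of the snoRNA hosts GAS5 and SNHG1 and reads of their intron snoRNAs per 100 host reads (y axes) in the 2 libraries of each group (x axis); points are libraries, lines are means, red is A549 and blue is B2B. The GAS5 snoRNA values drop to 9.0 to 10.7 in the SP600125 libraries, and the SNHG1 values lie between 18.6 and 25.9 in all libraries.

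Of the 9 GAS5 snoRNAs tested, 5 fell with SR11302 in A549 and 4 in B2B, 7 fell with SP600125 in each line, and none rose. Of all genes 13, 11.1, 25 and 22.6% were lower (SR11302 in A549 and B2B, SP600125 in A549 and B2B). Their median differences were −0.98, −1.06, −1.62 and −1.86. Between the inhibitors, which involves no untreated library, 3 of 9 were lower with SP600125 in each line (20.5% of all genes in A549 and 18.1% in B2B). Of the 8 SNHG1 snoRNAs, 0 rose and 2 fell with SR11302 in A549, 2 rose and 0 fell in B2B, 0 rose and 3 fell with SP600125 in A549, and 1 rose and 2 fell in B2B, near the 27.8, 22.5, 48.8 and 43.8% of all genes called. The GAS5 snoRNAs differed among themselves. The sequences of 3 with a call in each comparison with NT and of 1 with none are shown, chosen after the values were seen and read from hg38 at RefSeq positions on the minus strand. Capitals mark TGATG of the C box and CTGA of the D box, between which the guide sequence lies.
SNORD44: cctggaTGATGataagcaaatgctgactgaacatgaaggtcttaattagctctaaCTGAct
SNORD47: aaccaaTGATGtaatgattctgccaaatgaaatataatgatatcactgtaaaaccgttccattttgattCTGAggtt
SNORD80: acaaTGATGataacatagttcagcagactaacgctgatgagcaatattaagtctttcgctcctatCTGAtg
SNORD81: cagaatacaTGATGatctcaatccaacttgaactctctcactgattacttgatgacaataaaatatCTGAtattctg
They lie at chr1:173865968-173866028, chr1:173864369-173864445, chr1:173864833-173864903 and chr1:173864146-173864222.

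SNORD47 had 116 and 147 reads in A549_NT, 60 and 94 in A549_SR11302, 47 and 26 in A549_SP600125, 129 and 158 in B2B_NT, 84 and 39 in B2B_SR11302, and 20 and 18 in B2B_SP600125. Its log2 fold change was −1.05, −1.13, −1.44 and −2.56 for SR11302 in A549, SR11302 in B2B, SP600125 in A549 and SP600125 in B2B. SNORD80 changed by −1.14, −1.51, −1.97 and −2.24 and SNORD44 by −0.96, −1.06, −1.79 and −1.48. SNORD81 had 31 and 32 reads in A549_NT and 35 and 28 in B2B_NT, and its differences of 0.10, −0.03, −0.33 and −0.30 did not pass.

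Other snoRNA host genes split in direction. Of 23 tested of a list of 25 that includes GAS5 and SNHG1, 7 rose and 2 fell with SR11302 in A549, 3 rose and 3 fell in B2B, 7 rose and 9 fell with SP600125 in A549, and 4 rose and 7 fell in B2B. Of all genes 27.8, 22.5, 48.8 and 43.8% were called in these comparisons. EPB41L4A-AS1 rose in A549 with SR11302 (1.25 ± 0.13) and SP600125 (1.42 ± 0.13), and C6orf48 (the older symbol of SNHG32) rose with SP600125 in A549 (1.47 ± 0.11) and in B2B (1.05 ± 0.10). SNHG16 fell in each comparison (−1.16 ± 0.10 and −1.36 ± 0.10 with SR11302, −1.02 ± 0.10 and −1.74 ± 0.11 with SP600125, in A549 and B2B). Between the treated lines, SNHG5 was higher in A549 than in B2B under SR11302 (3.61 ± 0.17) and under SP600125 (4.14 ± 0.17). Of 14 factors of nonsense-mediated decay, 0 rose and 2 fell with SR11302 in each line, 1 rose and 4 fell with SP600125 in A549, and 3 rose and 1 fell in B2B, in each case a smaller share than that of all genes. UPF3A fell with SR11302 in A549 (−1.02 ± 0.12) and in B2B (−0.65 ± 0.11), while UPF1, the central helicase, fell with SP600125 in A549 (−0.85 ± 0.13). For the SP600125 difference between the lines, 7 of 14 were lower and 0 higher (13.1% of all genes lower).

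CASC9 was read in A549 only (plot of CASC9 and SFTA1P by library). It stood at 13.8 and 13.1 CPM in A549_NT, 5.44 and 7.28 CPM in A549_SR11302 and 19.8 and 16.1 CPM in A549_SP600125, and had 0 reads in all 6 B2B libraries. The 3 A549 groups did not overlap. CASC9 lies on chr8:75120409-75352327, minus strand, and 77.8% of its exon windows were unique, the lowest share among the 8 genes. RefSeq places it at chr8:75223117-75278889, so the distances to its neighbours depend on the annotation. A count of 0 allows 3 reads, which is 0.122 to 0.183 CPM in the B2B libraries and covers counting error only. Between the inhibitors CASC9 was 1.49 ± 0.20 higher with SP600125 than with SR11302 (edgeR adjusted p = 0.000172, 2.81-fold), and this held in all 11 alternatives (1.30 to 1.69). Against NT its values differed by −1.07 ± 0.20 with SR11302 and 0.41 ± 0.19 with SP600125. Over both libraries of a group and a floor of 3 reads over the group, CASC9 was at least 204-fold higher in A549 than in B2B untreated, at least 90.1-fold higher under SR11302 and at least 212-fold higher under SP600125. These values are a description, since CASC9 was picked for this pattern and passed the count filter only through A549. Of its 2 tested neighbours, CRISPLD1, 85851 bases to the left, rose with SR11302 in A549 (2.95 ± 0.34) and stood at 0.60 ± 0.43 with SP600125. HNF4G, encoding a nuclear receptor and 55587 bases to the right, did not pass in A549 under either inhibitor (0.45 ± 0.40 and 0.13 ± 0.43). In B2B both were listed at 0 untreated and were called higher with SR11302, at means of 0.942 CPM for CRISPLD1 and 0.405 CPM for HNF4G.

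**Figure D4:**
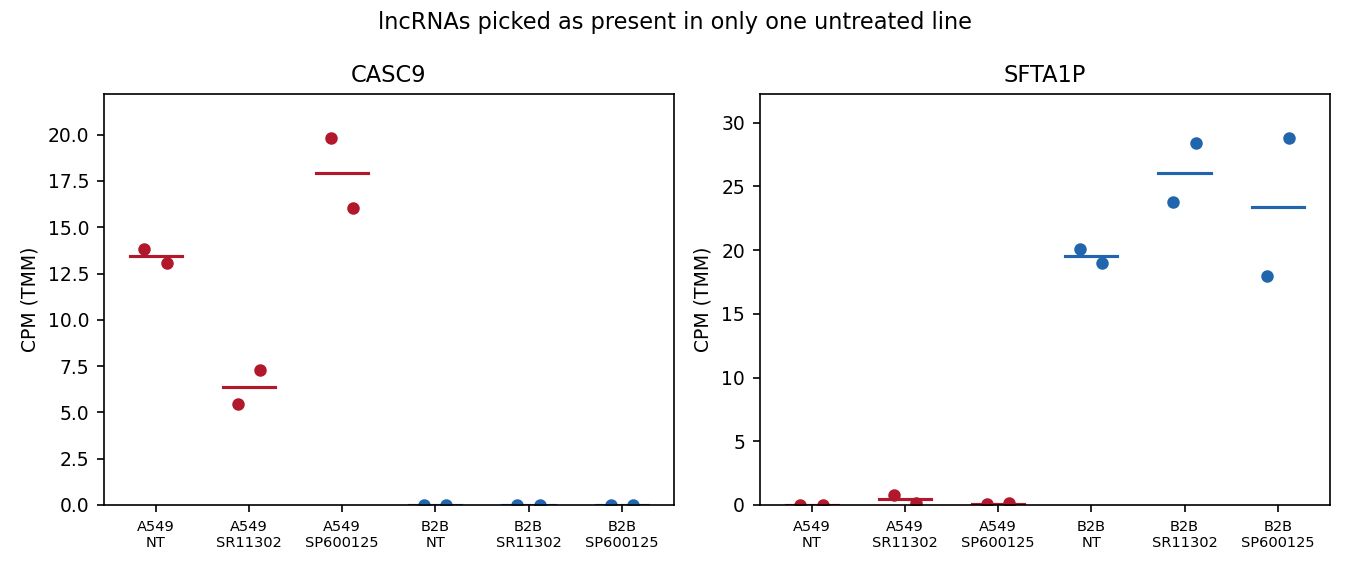
CPM of CASC9 and SFTA1P (y axes) in the 2 libraries of each group (x axis); points are libraries, lines are means, red is A549 and blue is B2B. CASC9 is at 0 in the 6 B2B libraries and lowest in A549 with SR11302, and SFTA1P is at 18.0 to 28.8 CPM in the B2B libraries and under 1 CPM in the A549 libraries.

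SFTA1P (chr10:10784437-10795047, minus strand) showed the reverse pattern. It stood at 20.1 and 18.97 CPM in B2B_NT, 23.8 and 28.4 CPM in B2B_SR11302, and 18.0 and 28.8 CPM in B2B_SP600125, with SP600125 overlapping the other groups. In A549 it had 0 reads in each NT library, 16 and 4 reads with SR11302, and 1 and 2 reads with SP600125. The 20 reads of A549_SR11302 were at least 5.52-fold above the floor of A549_NT, and the reads of genes particular to B2B in these libraries were at 0.224 and 0.234% of the B2B level. SFTA1P itself stood at 0.777 and 0.167 CPM there, beside a mean of 26.1 CPM in B2B_SR11302. Under SR11302 the fitted difference of A549 from B2B was −5.83 ± 0.38 on the log2 scale, −7.23 without the first and −5.04 without the second A549_SR11302 library. Under SP600125 B2B had 214 times the level of A549 (95% counting interval 72.9 to 1039, 3 reads in A549), and untreated B2B had at least 239 times the level of A549. These line differences are a description, since SFTA1P was picked for them and passed the count filter only through B2B. SP600125 minus SR11302 was −0.16 ± 0.24 in B2B (edgeR adjusted p = 0.629) and −2.01 ± 1.03 in A549 (edgeR adjusted p = 0.128), and neither passed. The A549 difference passed without the second A549_SR11302 library (−2.81) and was −0.61 without the first.

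H19 RNA was not detected at this depth in either line. H19 (chr11:1995166-2004552, minus strand) and MIR675 had 0 reads in all 12 libraries, and 3 reads would be 0.122 to 0.224 CPM. Of 22 imprinted genes and partners of H19, 15 were tested, and 2 rose and 3 fell with SR11302 in A549, 0 rose and 4 fell in B2B, 2 rose and 6 fell with SP600125 in A549, and 3 rose and 8 fell in B2B, beside 27.8, 22.5, 48.8 and 43.8% of all genes called. KCNQ1OT1, an imprinted antisense lncRNA, fell with SP600125 in A549 (−3.08 ± 0.16) and in B2B (−2.90 ± 0.15), as did PHLDA2 (−3.74 ± 0.22 and −2.81 ± 0.21). MEG3, an imprinted lncRNA, fell with SP600125 in B2B (−2.27 ± 0.18) and in A549 (−0.74 ± 0.23) and rose with SR11302 in A549 (0.77 ± 0.20). CDKN1C, encoding a cell cycle inhibitor, rose with SP600125 in B2B (2.22 ± 0.32).

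UCA1 (chr19:15828206-15836328, plus strand) had reads in 8 of 12 libraries, with 7 at most, in the second A549_SR11302 library. The counts were 0 and 2 in A549_NT, 3 and 7 in A549_SR11302, 1 and 1 in A549_SP600125, 2 and 0 in B2B_NT, 1 and 4 in B2B_SR11302, and 0 and 0 in B2B_SP600125. The ratio of A549_SR11302 to A549_NT was 4.14 (95% counting interval 0.882 to 38.8), so no difference was detectable at this depth. Its exons overlap the antisense gene LINC01764 over 1083 bases. The 4 tested genes within 200000 bases, among them CYP4F11, which encodes a cytochrome P450, were higher in A549 than in B2B under each inhibitor. Of all genes, 29.9% were higher in A549 under SR11302 and 30% under SP600125. All 4 were low in treated B2B. CYP4F12 had means of only 0.0563 and 0 CPM in B2B with SR11302 and SP600125, and CYP4F2 0.22 and 0.14 CPM. CYP4F11 had 0.38 and 0.34 CPM there, and CYP4F3 0.24 and 0.69 CPM. CYP4F2 was also low in A549, at 0.91 and 1.51 CPM. The 4 genes are paralogs of 1 family, so their counts are uncertain and they are not separate results. Nothing is read from how many were called. In the untreated lines 3 of the 4 were called higher in A549 (30.4% of all genes), and CYP4F2 stood at −0.41 ± 0.56.

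Read over the comparisons, 6 of the 8 genes passed the count filter, CASC9 through its A549 libraries and SFTA1P through its B2B libraries, and H19 and UCA1 did not. Against NT, 4 were tested, of which 1 was called with SR11302 in A549, 2 with SR11302 in B2B and 2 with SP600125 in each line. All genes were called there in 27.8, 22.5, 48.8 and 43.8% (higher 14.8, 11.4, 23.9 and 21.2%, lower 13, 11.1, 25 and 22.6%), and nothing is read from counts out of 4. Of the differences between the lines, 1 of 4 was called for SR11302 (15.8% of all genes, 8.34% higher and 7.41% lower) and 2 of 4 for SP600125 (25.2%, 12.1% higher and 13.1% lower). Between the inhibitors 1 of 6 tested was called in A549 (37.1%, 16.6% higher and 20.5% lower) and 1 of 5 in B2B (33.7%, 15.6% higher and 18.1% lower). Between the treated lines, of MALAT1, NEAT1, GAS5 and SNHG1, 2 were called under SR11302 (56.5% of all genes, 29.9% higher and 26.6% lower) and 3 under SP600125 (58.2%, 30% higher and 28.2% lower). CASC9 and SFTA1P were not counted there. For the untreated lines, where no member was tested, 56.9% of all genes were called (30.4% higher in A549 and 26.5% lower).

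The lncRNAs followed different genes across the 12 libraries. By Pearson correlation of log2(CPM + 0.5), a description over libraries that share lines and treatments, NUDT4 (r = 0.96), ANKRD36BP1 (0.95) and CD24 (0.94) were most like MALAT1. STYX (0.93), KIAA1715 (0.93) and KDELR2 (0.91) were most like NEAT1, and the correlation of MALAT1 with NEAT1 was 0.66. RGS10, RPL31 and PSAT1 (0.92, 0.92 and 0.91) were most like GAS5, and AVPI1, CTC1 and USP39 (0.92, 0.92 and 0.91) most like SNHG1. For CASC9 these were AGR2, PON3 and PON2 (0.997 each) and for SFTA1P COG1, GLI3 and LSM14B (0.996, 0.995 and 0.994), and each of these members is read in only one line or nearly so.

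Of 50 other lncRNAs, 38 were tested. With SR11302 in A549, 10 rose and 7 fell (median 0.19), where 14.8% of all genes rose and 13% fell, and in B2B 1 rose and 11 fell (median −0.23), where 11.4% rose and 11.1% fell. With SP600125 10 rose and 11 fell in A549 (median 0.01), and 5 rose and 13 fell in B2B (median −0.37), where 23.9 and 21.2% of all genes rose and 25 and 22.6% fell. LINC01021 (PURPL), a p53-responsive lncRNA, rose in A549 with SR11302 (3.09 ± 0.17) and SP600125 (2.76 ± 0.17). TINCR, a lncRNA of epidermal differentiation, rose in A549 with SR11302 (2.14 ± 0.33) and SP600125 (2.73 ± 0.33). MIR17HG, the host of an oncogenic microRNA cluster, fell with SP600125 in B2B (−3.14 ± 0.33). For the difference between the lines, 8 were higher and 1 lower with SR11302 (8.34 and 7.41% of all genes), and 8 and 2 with SP600125 (12.1 and 13.1%). MIR100HG, a microRNA host, had the largest SP600125 difference of the list (4.10 ± 0.31).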

How the data were processed

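The files deposited by the authors held whole-number read counts per gene symbol, 1 file per library. The labels and methods name TRIzol extraction, DNase treatment, a KAPA kit that selects polyadenylated mRNA, alignment with STAR 2.7.10a and counting with HTSeq 1.99.2 on hg38. Annotation version and strand setting were not given in the sources used here. HTSeq summary lines were left out of library sizes. Counts were fitted in R 4.3.3 with edgeR 4.0.16: genes were filtered by filterByExpr (16373 kept), scaled by TMM, and fitted in a single quasi-likelihood model of 6 groups over 12 libraries (6 residual degrees of freedom). Calls needed an adjusted p (Benjamini-Hochberg, over all tested genes) below 0.05 and a log2 fold change of 0.5 or more in either direction. DESeq2 1.42.0 and other settings were alternatives, and the model was tested on simulated data. Intervals and floors (3 reads) cover counting error only. The 8 genes and all gene lists were chosen with earlier results of these data known. Named genes were those with the largest called differences in each list, nearest neighbours and most correlated genes. Some genes that this rule names are not reported here.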

Additional observations from a re-analysis of the deposited data

Results flagged for a closer look

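Tests of the difference between the lines called 3 results. The NEAT1 difference between A549 and B2B was 1.55 ± 0.25 on the log2 scale for SP600125 (edgeR adjusted p = 0.000672) and 0.91 ± 0.25 for SR11302 (edgeR adjusted p = 0.0252). The GAS5 difference for SP600125 was 0.54 ± 0.19 (edgeR adjusted p = 0.0491). Its call was kept in 7 of 16 alternatives (0.39 to 0.74), and that of NEAT1 for SR11302 in 10 of 16 (0.56 to 1.22).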

How the results depend on the processing

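MALAT1 with SR11302 in B2B (−1.05 to −0.95) and with SP600125 in A549 (−0.85 to −0.73) and B2B (−1.53 to −1.28), NEAT1 with SP600125 in B2B (−1.27 to −1.04), and CASC9 between the inhibitors in A549 (1.30 to 1.69) kept their calls under every alternative run for them. No called result reversed, while the uncalled MALAT1 difference between the lines for SR11302 became −0.12 without the second A549_SR11302 library and passed at 0.55 without the first. The number of the 8 genes called changed as follows, and the cause was not tested. Scaling by library size only gave 2 with SR11302 in A549 (NEAT1 0.52 called) and 1 in B2B. Fitting only the groups compared gave 1 with SP600125 in A549 and 0 for the SR11302 difference between the lines. Between the inhibitors, 2 were called in A549 without the count filter and without the fold minimum, and 2 in B2B without the fold minimum. Leaving out the second untreated library of each line gave 1 with SR11302 in B2B, 0 for the SR11302 and 1 for the SP600125 difference between the lines. Leaving out 1 library at a time gave 1 to 2 with SR11302 in B2B, 1 to 2 with SP600125 in A549, 0 to 2 and 1 to 2 for the SR11302 and SP600125 differences between the lines, 1 to 2 between the inhibitors in A549, and 2 to 5 between the lines under SR11302, CASC9 and SFTA1P included. Where this left 1 library in a group, its spread was assumed to equal that of the other groups. The calls of CASC9 and SFTA1P between the lines follow from how these genes were picked, and nothing is read from them. NEAT1 with SR11302 in A549 was 0.71 and called without the first A549_SR11302 library and 0.02 without the second. The replicate numbers did not pair the libraries (correlations of replicate differences from −0.256 to 0.240 over 15 pairs of groups), and with the replicate number as a block (replicate block) no call changed, with MALAT1 at −0.80 for SR11302 in A549 and NEAT1 at 1.56 for the SP600125 difference between the lines. With 2 libraries a group, differences near the fold minimum change side with single libraries.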
